A study of Homo sapiens with 18 samples.

Results

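The comparison described here is that of MOLM-13 cells after 24 h with dTRIM24 against MOLM-13 cells after 24 h with DMSO, the solvent control. MOLM-13 is an established human acute monocytic leukaemia line that carries an MLL fusion and an activating FLT3 duplication. The line was grown in RPMI with serum, and nothing in the labels names a further genetic change in any group. Both groups are labelled with 3 libraries each, of 18 in the series, and the other groups were given IACS-9571 for 24 h, or DMSO, IACS-9571 or dTRIM24 for 4 h. The measurement is the level of each gene's RNA in FPKM (fragments per kilobase of transcript, scaled to the library's fragments), given by the authors as 1 mean per group. All gene rows with at least 1 FPKM in either group were compared, 11151 of the 23621 gene rows in the table. Each difference is log2(FPKM + 1) with dTRIM24 minus log2(FPKM + 1) with DMSO, a scale that understates the change of low genes. With 1 mean per group no replicate error, test or p-value can be given, the read depth is unknown, and every difference below is a description of these means.

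TRIM24 is a nuclear protein that reads histone tails through a PHD finger and a bromodomain, a pocket that binds acetylated lysine, and it acts as a co-regulator of transcription, among others with nuclear receptors. IACS-9571 occupies the bromodomains of TRIM24 and of BRPF1, the scaffold of MOZ-type histone acetyltransferase complexes. dTRIM24 couples such a ligand to one for VHL, which picks the substrates of a cullin-based ubiquitin ligase, and thereby directs the protein TRIM24 to the proteasome. The compound thus acts on protein, and the mRNA of TRIM24 does not check the labels. No dose is stated in the sources used here, and nothing in the labels says that the libraries of a group came from separate cultures.

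Of 16 markers of monocytic leukaemia, 15 reached 1 FPKM in either group, and their summed level was 949 FPKM with DMSO and 1018 FPKM with dTRIM24. CD14, a late monocyte marker, stayed below 1 FPKM. Markers of other cells were mostly below 1 FPKM: the exceptions were EPOR among 10 erythroid markers, CD4 among 8 T cell markers (monocytic cells carry it too), PAX5 among 7 B cell markers, and KRT8, KRT18 and MUC1 among 8 epithelial markers, while 0 of 7 fibroblast markers reached it. In bulk RNA, fewer cells of a type and less RNA per cell cannot be told apart.

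The values of nearly all genes were higher with dTRIM24. The median level of the kept rows was 10.17 FPKM with DMSO and 12.6 FPKM with dTRIM24 at 24 h. Of the 11151 rows, 10743 (96.3%) lay above DMSO and 408 below, with a median difference of 0.26, or 1.23-fold in FPKM. The shift was broad and narrow in spread: the 25th and 75th percentiles of the differences were 0.15 and 0.39, and the 5th and 95th were 0.02 and 0.59. By contrast 25 ERCC spike-ins, synthetic RNAs added to each sample, had a median difference of -0.06, with 12 above and 13 below DMSO, a range of -0.35 to 0.46 and an SD of 0.17. The summed level of all gene rows was 813237 FPKM with DMSO and 970407 FPKM with dTRIM24. Per the labels, samples were normalized by cell count before the spike-ins were mixed in. The same kept rows had a median of 12.3 FPKM with DMSO and with dTRIM24 at 4 h, and 9.96 FPKM with IACS-9571 at 24 h. The dTRIM24 group at 24 h thus lay near these 4 h groups, and the other 24 h groups lay lower. It held the highest value of all 6 groups in 3815 of the 10924 rows that remain without small RNAs and RNAs lacking a poly(A) tail (34.9%).

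The size of the shift went with base composition. In 10 equal bins of genes by the GC content of their transcripts, the median difference was 0.15 in the lowest bin and 0.48 in the highest (Spearman's rho 0.61 across 10673 genes, which are not independent of each other). The rho was -0.74 for dTRIM24 against DMSO at 4 h and -0.74 for DMSO at 24 h against DMSO at 4 h, so base composition also went with the difference between groups that both had DMSO. For IACS-9571 against the same DMSO group at 24 h it was 0.17. The longest annotated transcript of a gene showed little relation (rho -0.02, and 0.17 once the GC trend was taken out). For this reason genes and lists are given relative to the median of all genes (called the relative difference). A second value, with a cubic trend on GC content taken out, is printed for part of them, and the plot of list medians shows it for each list drawn.

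**Figure D1:**
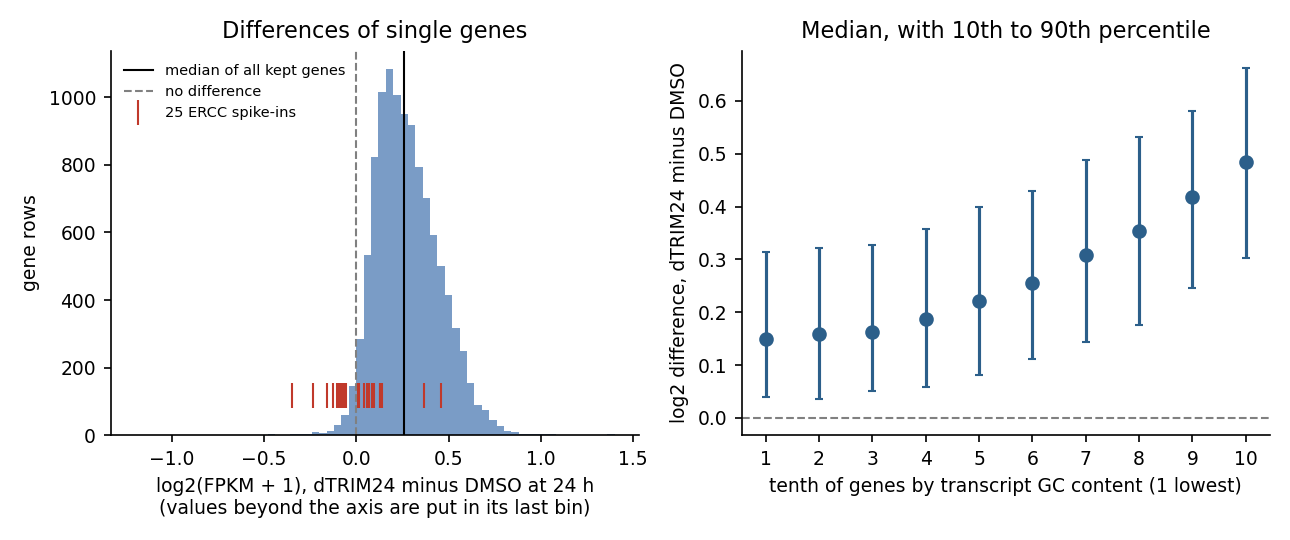
Left, histogram of the log2(FPKM + 1) difference of dTRIM24 against DMSO at 24 h over 10924 rows (small RNAs and RNAs lacking a tail left out), with the 25 spike-ins as red ticks at an arbitrary height: genes centre on 0.26 and spike-ins on -0.06. Right, median difference in 10 bins of genes by transcript GC content, with bars from the 10th to the 90th percentile of genes, going from 0.15 to 0.48.

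Against that shift few genes stood apart by 2-fold, and most of those that did were small RNAs. As deposited, 85 rows were past 2-fold higher (0.762% of the kept rows) and 54 past 2-fold lower (0.484%). Relative to the median of all genes the split was 69 (0.619%) and 73 (0.655%), with both columns scaled to the same total it was 69 and 66, after quantile normalization 69 and 75, and once the GC trend was removed 62 and 72. At 1.5-fold as deposited, 5.44% of the kept rows were higher and 0.753% lower. Of 1720 small RNA rows in the table, 180 were kept. Many of them reached 1 FPKM in only 1 group, so the filter itself favours large differences in this class. The 180 gave 70 of the higher (38.9% of the small RNAs) and 47 of the lower (26.1%). Of the other 10971 rows, 15 (0.137%) were past 2-fold higher and 7 (0.0638%) lower as deposited. Without RNAs lacking a poly(A) tail as well, 5 of 10924 rows were past 2-fold higher relative to the median (0.0458%) and 2 lower (0.0183%). Those 7 are HYPK, EIF3CL, PCNA-AS1, LOC728875 and INO80B-WBP1 on the higher side, and SLX1A and EEF1E1-MUTED on the lower. Of all kept rows 10928 (98%) lay within 1.5-fold of the median shift.

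TRIM24 and its relatives moved with the bulk of genes. TRIM24 mRNA was at 13.97 FPKM with DMSO and 17.2 FPKM with dTRIM24, a relative difference of 0.03. TRIM33, a relative that also carries a PHD finger and bromodomain, went from 7.66 FPKM to 9.60 FPKM (0.03). TRIM28, the co-repressor of KRAB zinc finger proteins, went from 113 FPKM to 160 FPKM (0.24, and 0.09 without the GC trend). A broad list of zinc finger genes, labelled KRAB-type in the plot of list medians, also holds genes without a KRAB domain, such as ZNF598. It had 346 kept members with a median of 0.02, and 184 of them lay above the median of all genes. In the complexes around BRPF1, the other bromodomain target of IACS-9571, 7 of 9 members lay above the median of all genes, with a list median of 0.13 (0.08 with the GC trend taken out). BRPF1 itself was at 5.57 FPKM with DMSO and 8.91 FPKM with dTRIM24, its relative BRD1 at 4.80 FPKM and 7.42 FPKM, and the acetyltransferase genes KAT6A at 7.72 FPKM and 10.4 FPKM and KAT6B at 6.23 FPKM and 8.98 FPKM. None of the 9 was beyond 1.5-fold of the median, a distance that 0.330% of the 10924 rows reached on the higher side and 0.128% on the lower.

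VHL, the substrate receptor that dTRIM24 engages, was among the 15 highest relative differences of genes that reached 5 FPKM, small RNAs apart. Its mRNA was at 6.94 FPKM with DMSO and 13.9 FPKM with dTRIM24 at 24 h, a relative difference of 0.65 (0.69 with the GC trend taken out). IACS-9571, which lacks a VHL ligand, gave 9.04 FPKM at 24 h, and at 4 h VHL was at 8.75 FPKM with DMSO and 9.72 FPKM with dTRIM24. Set against 4 h, the DMSO value at 24 h was low and the dTRIM24 value high. VHL was the only member of its 10-gene ligase list beyond 1.5-fold of the median. The adaptor TCEB2 (elongin B) went from 123.3 FPKM to 178 FPKM (0.27), the ubiquitin-conjugating enzyme CDC34 from 23.1 FPKM to 33.1 FPKM (0.24), and the cullin exchange factor CAND1 from 69.6 FPKM to 71.3 FPKM (-0.22). The list median was -0.07. VHL normally destroys HIF, the oxygen-regulated transcription factor. The 16 kept HIF targets had a median of 0.04 (0.02 with the GC trend taken out), with none beyond 1.5-fold. VEGFA, the angiogenic growth factor, was at 13.8 FPKM and 19.4 FPKM (0.21), SLC2A1, a glucose transporter, at 10.6 FPKM and 14.8 FPKM (0.19), and P4HA1, a collagen hydroxylase, at 23.6 FPKM and 24.5 FPKM (-0.21). The oxygen-sensing genes had a median of -0.02 over 6 members. Glycolysis genes had a median of 0.09 over 15, and -0.01 without the GC trend.

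After HYPK, which is part of a read-through locus, FADS2 had the highest relative difference of any gene that reached 5 FPKM in either group, small RNAs apart. FADS2 is the delta-6 desaturase that opens the synthesis of long polyunsaturated fatty acids. It was at 15.1 FPKM with DMSO and 37.0 FPKM with dTRIM24 at 24 h, a difference of 1.24 and a relative difference of 0.98 (0.88 with the GC trend taken out). At 4 h, in groups with a DMSO control of their own, it was at 21.1 FPKM with DMSO and 41.7 FPKM with dTRIM24, a difference of 0.95. With IACS-9571 it was at 56.6 FPKM at 4 h and 22.9 FPKM at 24 h, so that FADS2 was above DMSO with either compound at each time, the compounds sharing the DMSO group of that time. FADS1, the partner desaturase, had the same order: 8.84 FPKM and 16.3 FPKM at 24 h (0.55), 10.55 FPKM and 26.6 FPKM at 4 h. FASN, the fatty acid synthase, was at 31.8 FPKM and 56.1 FPKM at 24 h (0.54, and 0.31 without the GC trend), and SCD, the stearoyl-CoA desaturase, at 236 FPKM and 367 FPKM (0.38). SREBF1, which encodes the sterol-regulated transcription factor of the fatty acid genes, was at 18.3 FPKM and 33.5 FPKM at 24 h (0.58) but at 28.4 FPKM and 23.6 FPKM at 4 h. Its order with DMSO was therefore opposite at the 2 times. Of 16 kept genes of fatty acid synthesis 10 lay above the median of all genes, with a list median of 0.09 (0.12 with the GC trend taken out).

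The cholesterol branch did not stand out in the same way. The 9 mevalonate pathway genes had a median of -0.01 at 24 h, where their median difference at 4 h was 0.62, and the 13 genes from squalene to cholesterol had 0.04 at 24 h and 0.81 at 4 h. LSS, the lanosterol synthase, was the farthest from the median, at 7.99 FPKM and 14.2 FPKM (0.50, and 0.37 without the GC trend). MVD, the mevalonate decarboxylase, was at 7.38 FPKM and 12.9 FPKM (0.47, and 0.26), and MSMO1, a sterol demethylating enzyme, at 16.4 FPKM and 17.2 FPKM (-0.19). The 13 genes of SREBP control and lipoprotein uptake had a median of 0.08. LXR targets had a median of 0.06 over 6 genes, and 0.00 without the GC trend. None of the members of these 4 lists was past 2-fold relative to the median.

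**Figure D2:**
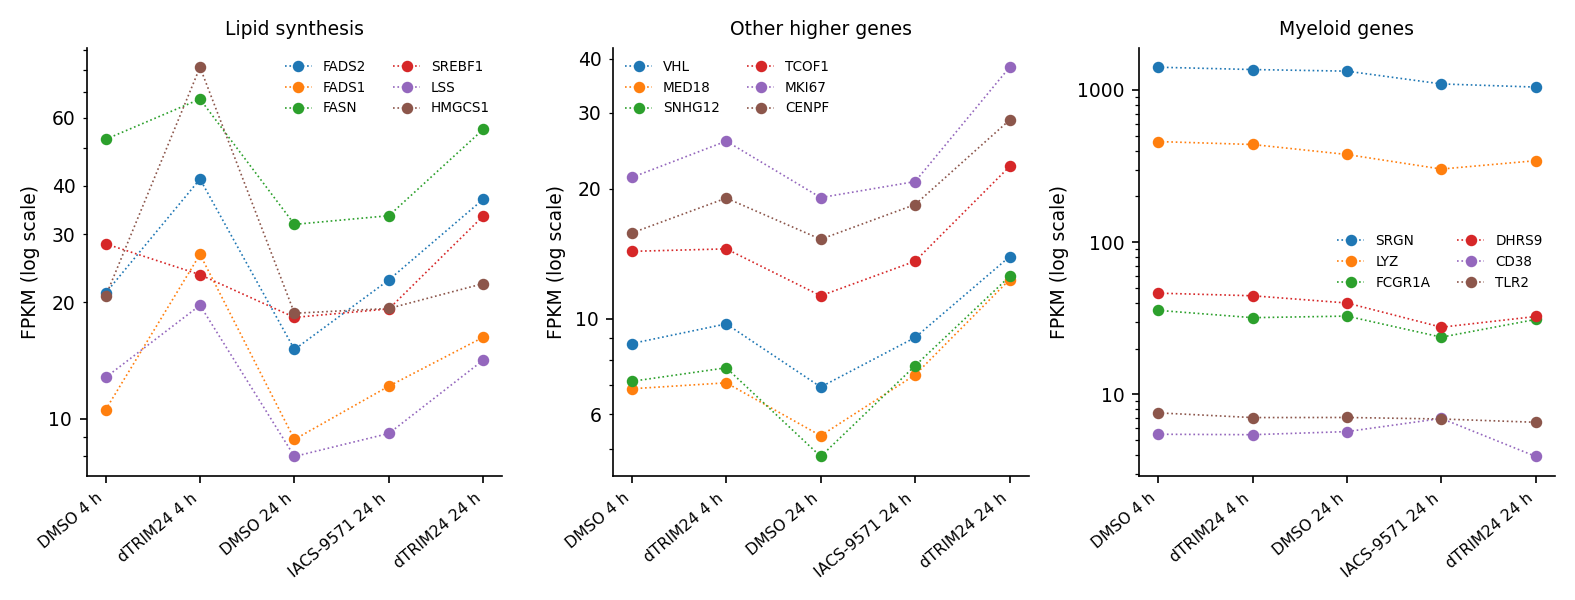
FPKM on a log axis for 18 genes in 5 groups, 1 mean per group and no error bars; the dotted lines only join the values of a gene. FADS2 and FADS1 are above DMSO with dTRIM24 at 4 h and at 24 h, VHL, MED18, SNHG12, TCOF1, MKI67 and CENPF have their highest value with dTRIM24 at 24 h, and SRGN and CD38 have their lowest there.

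Genes of varied roles made up the rest of the highest relative differences. MED18, a subunit of the Mediator complex that bridges transcription factors and RNA polymerase II, was at 5.35 FPKM with DMSO and 12.3 FPKM with dTRIM24 (0.81, and 0.82 without the GC trend), with 6.88 FPKM and 7.10 FPKM at 4 h. It stood alone in its complex: the 32 kept Mediator genes had a median of -0.02, and MED18 was the only member beyond 1.5-fold. MED15, in the tail module, was at 10.2 FPKM and 16.5 FPKM (0.38). GIGYF1, a translational repressor, was at 2.61 FPKM and 6.27 FPKM (0.75), and BAHCC1, a large chromatin protein with a BAH domain, at 3.99 FPKM and 8.97 FPKM (0.74), with 0.52 and 0.50 once the GC trend was taken out. LENG8 was at 5.53 FPKM and 11.03 FPKM (0.63, and 0.44). CA2, a carbonic anhydrase, was at 8.83 FPKM and 18.02 FPKM (0.70, and 0.72). With IACS-9571, compared with the same DMSO group, CA2 was higher still, at 26.2 FPKM. The promoter of MED18, the Mediator subunit with the largest difference, is shown because it holds a full cyclic AMP response element, TGACGTCA, which 3.498% of 8719 promoter windows of kept genes hold. The window is from RefSeq on GRCh38.p14, chr1:28328790-28329089 on the + strand, runs from 250 bases before to 50 after the start site, and has the element in capitals. Several motifs were searched for, and the MED18 window also holds CCGGAAGT, as do 10.07% of the windows. A match of letters is a description and not a binding site.
MED18: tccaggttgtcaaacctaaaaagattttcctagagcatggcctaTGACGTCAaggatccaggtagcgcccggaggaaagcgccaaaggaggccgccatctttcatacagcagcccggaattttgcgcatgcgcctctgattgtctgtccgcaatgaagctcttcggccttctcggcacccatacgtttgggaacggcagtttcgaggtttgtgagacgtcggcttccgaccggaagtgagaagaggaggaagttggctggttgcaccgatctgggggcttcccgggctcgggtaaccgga

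Genes of ribosome biogenesis lay mostly above the median of all genes. They build the ribosome in the nucleolus, and 44 of 62 lay above the median of all genes, with a list median of 0.11 (0.08 with the GC trend taken out). TCOF1, the nucleolar factor treacle that serves RNA polymerase I, was at 11.3 FPKM and 22.5 FPKM (0.68, and 0.54) and was the only member beyond 1.5-fold. MYBBP1A, a nucleolar Myb-binding protein, was at 19.1 FPKM and 31.9 FPKM (0.45), and the helicase DDX51 at 4.88 FPKM and 8.56 FPKM (0.44). PPAN, a large-subunit assembly factor whose gene is overlapped by a read-through transcript, was at 24.97 FPKM and 42.8 FPKM (0.50). At 4 h these 4 genes were at 14.3, 27.6, 7.53 and 40.8 FPKM with DMSO and at 14.5, 24.7, 7.02 and 33.9 FPKM with dTRIM24. MYC, the transcription factor known to drive such genes, was at 168 FPKM and 259 FPKM at 24 h (0.36, and 0.23 without the GC trend), and at 207.5 FPKM with IACS-9571. The MYC network, MYC included, had a list median of 0.09 over 12 genes, and 0.01 without the GC trend.

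The proteins of the finished ribosome lay on the other side. Of 85 cytosolic ribosomal protein genes 23 lay above the median of all genes, with a list median of -0.06 (-0.07 with the GC trend taken out). RPL39 was at 4246 FPKM and 4283 FPKM (-0.24), RPL9 at 2819 FPKM and 2900.2 FPKM (-0.22), and RPL7L1, a paralogue with a role in assembly, at 96.0 FPKM and 133 FPKM (0.21). Mitochondrial ribosomal proteins (76 genes, median 0.00), translation factors (64, 0.00), aminoacyl-tRNA synthetases (40, 0.01), RNA polymerase subunits (31, 0.02) and splicing factors (45, 0.00) sat at the median. Nuclear subunits of oxidative phosphorylation were below it in 52 of 75 cases, with a median of -0.06, and proteasome subunits had a median of -0.02 over 40.

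The E-box CACGTG, the element that MYC and its partner MAX bind, was searched on both strands in the promoter windows. It was present in 17 of 53 windows of ribosome biogenesis genes (32.08%) and in 936 of 8719 windows of kept genes (10.74%). Within the list, the 17 genes with the E-box had a median relative difference of 0.12 and the 36 without had 0.08, with 13 and 25 above the median of all genes. The promoter of MYBBP1A is shown as an example from chr17:4555335-4555634, - strand, GRCh38.p14, with the E-box in capitals just after the start site.
MYBBP1A: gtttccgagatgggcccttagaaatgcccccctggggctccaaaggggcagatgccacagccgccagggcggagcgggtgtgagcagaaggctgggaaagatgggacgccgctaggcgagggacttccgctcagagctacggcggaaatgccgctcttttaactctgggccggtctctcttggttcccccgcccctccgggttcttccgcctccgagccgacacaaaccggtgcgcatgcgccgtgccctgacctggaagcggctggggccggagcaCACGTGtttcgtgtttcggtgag

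Mitotic genes as a group sat at the median of all genes, and MKI67 and CENPF were beyond 1.5-fold of it. The 40 genes of mitosis and the kinetochore had a median of -0.01 (0.04 with the GC trend taken out), with 19 above the median of all genes. MKI67, the proliferation antigen Ki-67 that coats mitotic chromosomes, was at 19.1 FPKM with DMSO and 38.2 FPKM with dTRIM24 (0.71), at 20.8 FPKM with IACS-9571, and at 21.2 FPKM and 25.8 FPKM in the 4 h pair. CENPF, a kinetochore and nuclear matrix protein, was at 15.3 FPKM and 28.8 FPKM (0.62). CENPE, the kinetochore motor, was at 2.75 FPKM and 5.69 FPKM (0.58). With the GC trend taken out their relative differences were 0.74, 0.71 and 0.67, larger than without that step. Their longest annotated transcripts were 12678, 10307 and 8612 bases. DNA replication and S phase genes had a median of 0.02 over 49, with UHRF1, which maintains DNA methylation, at 51.6 FPKM and 81.2 FPKM (0.39) and CHAF1A, a histone chaperone, at 22.2 FPKM and 35.3 FPKM (0.39). The CCAAT box, a hallmark of cell cycle promoters, was present in 25 of 33 windows of the mitosis list (75.76%) and in 37.34% of all windows. The 25 genes with it had a median of -0.02 and the 8 without 0.05. The windows of MKI67 (chr10:128126374-128126673, - strand) and CENPF (chr1:214602945-214603244, + strand) are shown for their repeated boxes, 2 and 4 in number, in capitals on either strand (CCAAT or its complement ATTGG).
MKI67: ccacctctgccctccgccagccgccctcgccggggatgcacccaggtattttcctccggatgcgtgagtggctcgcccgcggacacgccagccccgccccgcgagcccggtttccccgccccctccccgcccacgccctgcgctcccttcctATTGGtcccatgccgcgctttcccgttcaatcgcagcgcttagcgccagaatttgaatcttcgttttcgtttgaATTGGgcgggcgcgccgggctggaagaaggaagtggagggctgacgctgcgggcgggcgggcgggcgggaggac
CENPF: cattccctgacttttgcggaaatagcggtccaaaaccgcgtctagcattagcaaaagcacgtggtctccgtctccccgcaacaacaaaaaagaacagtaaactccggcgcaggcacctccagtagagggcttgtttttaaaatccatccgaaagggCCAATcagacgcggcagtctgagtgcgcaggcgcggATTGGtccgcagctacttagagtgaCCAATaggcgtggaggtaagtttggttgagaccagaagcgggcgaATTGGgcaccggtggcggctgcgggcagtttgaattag

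Chromatin and elongation factors of MLL-fusion leukaemia lay slightly above the median. In such cells the fusion recruits elongation factors and DOT1L to the HOXA genes and MEIS1. The 20 cofactor genes had a median of 0.09 (0.07 with the GC trend taken out), with DOT1L, the H3K79 methyltransferase, at 12.4 FPKM and 20.4 FPKM (0.42), MLLT1 (ENL) at 19.6 FPKM and 30.5 FPKM (0.36) and PAF1 at 28.7 FPKM and 41.2 FPKM (0.25). The 8 genes of BET bromodomains and P-TEFb control had a median of 0.13 (0.10), with BRD2 at 58.5 FPKM and 91.4 FPKM (0.38). The HOXA and MEIS1 program itself had a median of 0.04 over 13 genes. MEIS1 was at 10.4 FPKM and 14.2 FPKM (0.16), and HOXA10 at 39.2 FPKM and 44.1 FPKM (-0.09). None of these genes was beyond 1.5-fold of the median.

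Stress pathways divided. Genes of the integrated stress response, which ATF4 drives, were above the median of all genes in 26 of 34 cases, with a median of 0.14, but 0.03 with the GC trend taken out. DDIT4, an mTORC1 inhibitor, was at 150 FPKM and 229 FPKM (0.35), DDIT3 (CHOP) at 12.6 FPKM and 19.3 FPKM (0.32, and 0.31), and the amino acid transporter SLC7A5 at 75.4 FPKM and 111 FPKM (0.29). NRF2 antioxidant genes were above it in 15 of 22 cases, with 0.11, or 0.02 with the GC trend taken out. Within that list the cystine transporter SLC7A11 was at 5.48 FPKM and 8.24 FPKM (0.25, and 0.35). Nonsense-mediated decay genes, 11 of 14 above, had a median of 0.14 and kept 0.09 with the GC trend taken out. UPF1, the central helicase of that pathway, was at 22.3 FPKM and 33.5 FPKM (0.31), and UPF2 at 16.01 FPKM and 23.5 FPKM (0.27, and 0.36).

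The unfolded protein response of the endoplasmic reticulum lay lower, with 21 of 28 genes below the median of all genes and a list median of -0.11 (-0.08 with the GC trend taken out). XBP1, its transcription factor, was at 316 FPKM and 310 FPKM (-0.29), while SYVN1, a ubiquitin ligase of the same pathway, was at 7.25 FPKM and 11.4 FPKM (0.33). All 5 kept metallothionein genes, which encode metal-binding proteins, lay below the median, by -0.17 in the median (-0.23). MT1F was at 58.4 FPKM and 50.02 FPKM (-0.48) and MT1E at 83.2 FPKM and 82.7 FPKM (-0.26). Cytosolic heat shock genes had a median of -0.02 over 24, p53 targets -0.01 over 27, interferon response genes -0.04 over 23, NF-kB pathway genes 0.05 over 16 and immediate early genes 0.08 over 23. The last 2 had -0.04 and -0.03 once the GC trend was removed. BBC3 (PUMA), a p53 target and member of the BCL2 family, was at 3.44 FPKM and 6.18 FPKM (0.44, and 0.21), while BCL2 was at 15.97 FPKM and 16.07 FPKM (-0.25). The BCL2 family had a median of 0.01 over 16 genes, and -0.09 without the GC trend.

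**Figure D3:**
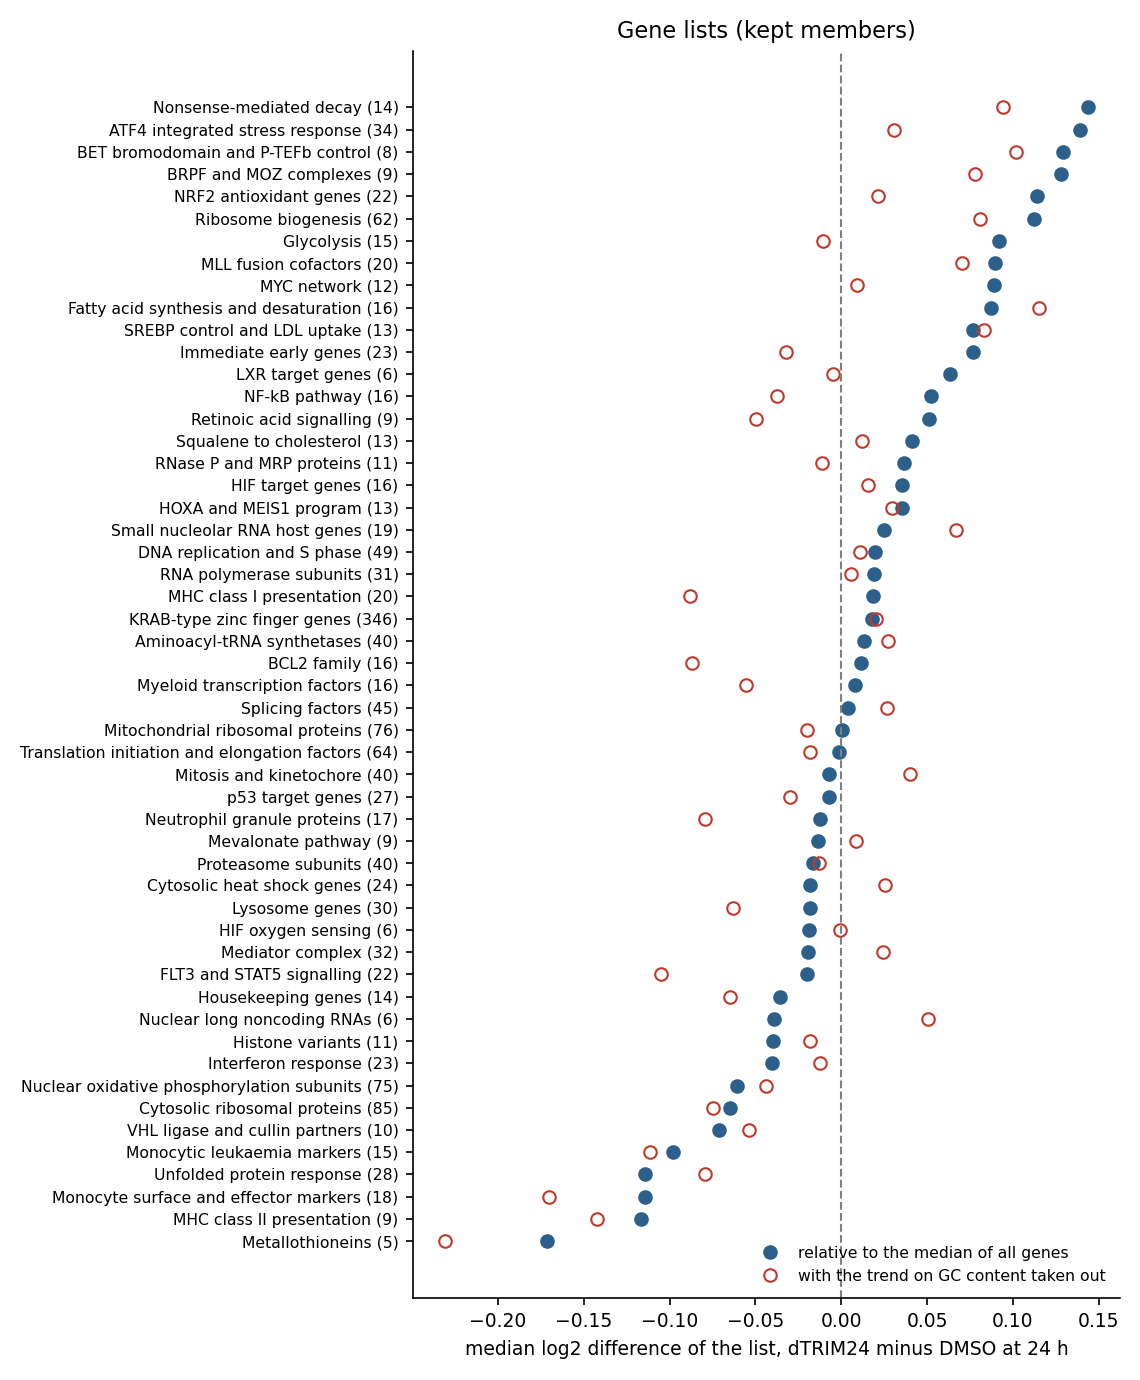
Median relative difference of each gene list with at least 5 kept members (number in brackets), for dTRIM24 against DMSO at 24 h, as filled points; open points have the trend on GC content taken out. Replication-dependent histones, SNAR genes and small RNAs are left out of the plot. The filled points run from metallothioneins (-0.17) to nonsense-mediated decay (0.14).

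SRGN and CD38 were among the 15 genes with the lowest relative differences that reached 5 FPKM, small RNAs apart. SRGN, the proteoglycan core of secretory granules, was at 1328.5 FPKM with DMSO and 1044 FPKM with dTRIM24, a relative difference of -0.60 (-0.51 with the GC trend taken out). With IACS-9571 SRGN was at 1095 FPKM, and in the 4 h pair at 1410.0 FPKM and 1361 FPKM. CD38, a surface NAD-consuming enzyme that retinoic acid is known to induce, was at 5.70 FPKM and 3.92 FPKM (-0.70, and -0.67). It was at 6.96 FPKM with IACS-9571, so the compounds lay on opposite sides of the DMSO value, each compared with the same group. The monocyte and granule genes named next were picked as the farthest from the median in their lists and were within 1.5-fold of it. LYZ, lysozyme, was at 377 FPKM and 343 FPKM (-0.39), and MPO, the granule peroxidase, went the other way, at 5.13 FPKM and 7.42 FPKM (0.20). DHRS9, a retinol dehydrogenase found in macrophages, was at 39.9 FPKM and 32.5 FPKM (-0.54), with 27.6 FPKM under IACS-9571. TLR2, a receptor for bacterial lipoproteins, was at 7.06 FPKM and 6.57 FPKM (-0.35), FCGR1A, the high-affinity Fc receptor, at 32.7 FPKM and 31.1 FPKM (-0.33), CD36, a scavenger receptor, at 10.9 FPKM and 10.4 FPKM (-0.32), and S100A9, a calcium-binding alarmin, at 112 FPKM and 109 FPKM (-0.30). DHRS9 was named after its values were seen.

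Of 18 kept monocyte surface and effector genes, 14 lay below the median of all genes, with a list median of -0.11 (-0.17 with the GC trend taken out). Their summed level, with the 11 members below 1 FPKM, was 444 FPKM with DMSO and 481.8 FPKM with dTRIM24, and 14 of the 18 lay above DMSO as deposited, so the list was low against the general shift and not against DMSO itself. FCER1G, an Fc receptor chain, went the other way, at 0.938 FPKM and 2.22 FPKM. MHC class II genes were below in 7 of 9 cases (-0.12, and -0.14) and MHC class I genes had a median of 0.02 over 20 (-0.09). Neutrophil granule proteins had a median of -0.01 over 17 (-0.08), FLT3 and STAT5 signalling -0.02 over 22 (-0.11), lysosome genes -0.02 over 30 and the 9 retinoic acid signalling genes 0.05 (-0.05). FLT3 was at 84.02 FPKM and 87.3 FPKM (-0.20). The transcription factors that define the myeloid state had a median of 0.01 over 16, with SPI1 (PU.1) at 55.4 FPKM and 75.5 FPKM (0.18, and -0.05) and CEBPA at 115 FPKM and 151 FPKM (0.13, and -0.11). Housekeeping genes, for comparison, had a median of -0.04 over 14.

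RNAs that lack a poly(A) tail, counted apart from the small RNAs, lay below DMSO as a class. The 47 kept ones had a median difference of -0.57, where the other 10924 rows had 0.26. How RNA was selected for the libraries is not stated in the sources used here, so what values of tailless RNAs measure is uncertain. The replication-dependent histone genes make mRNAs with a stem-loop for an end, and they lay below the median of all genes in 34 of 37 cases, with a relative median of -0.66 (-0.67 with the GC trend taken out). Of these, 22 were past 1.5-fold lower and 8 past 2-fold lower relative to the median, where the 10971 rows without small RNAs, histones included, had 0.401% and 0.164% past these limits. Their levels were low at 24 h, with a median of 1.46 FPKM with DMSO and 0.884 FPKM with dTRIM24. Of 72 such rows in all, 37 were kept. Most of these reached 1 FPKM only with DMSO, so the filter itself favours low differences in this list. Over 8 alternative settings the relative median ran from -1.03 to -0.10. HIST1H3B was at 2.37 FPKM and 0.419 FPKM, and HIST1H2BG at 1.28 FPKM and 0.109 FPKM, close to the floor of the table. HIST1H4K was at 7.59 FPKM and 6.91 FPKM (-0.38). Of the 37, 8 lay above DMSO as deposited, among them HIST2H2AA3 at 4.47 FPKM and 5.08 FPKM (-0.10). At 4 h HIST1H3B was at 0.349 FPKM with DMSO and 26.2 FPKM with dTRIM24, so the direction was opposite at the 2 times.

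Histone variants, a list kept apart from the replication-dependent genes, had a median of -0.04 over 11, with H2AFX at 27.2 FPKM and 44.6 FPKM (0.44, and 0.18 without the GC trend). RMRP, the RNA of the RNase MRP that cuts precursor ribosomal RNA, was at 67.1 FPKM and 20.2 FPKM at 24 h, at 7.25 FPKM with IACS-9571, and at 12.7 FPKM and 1196 FPKM in the 4 h pair. RPPH1, the RNA of the RNase P that trims transfer RNAs, was at 23.5 FPKM and 8.57 FPKM, at 1.95 FPKM with IACS-9571, and at 2.01 FPKM and 493 FPKM in the 4 h pair. Of these 5 groups both were highest with dTRIM24 at 4 h and lowest with IACS-9571 at 24 h. The 11 proteins that share these particles had a median of 0.04, with POP1 at 8.37 FPKM and 12.07 FPKM (0.22). All 6 kept SNAR genes, of 22 rows, were past 2-fold lower relative to the median, but only 1 was as deposited. Of the 10971 rows without small RNAs, SNAR genes included, 0.164% were past this limit relative to the median. SNAR-B1 was at 12.6 FPKM and 0.102 FPKM, the latter at the floor of the table, and SNAR-A6 at 14.1 FPKM and 6.82 FPKM. The SNAR copies are close to identical, which leaves the value of each uncertain. Nuclear long noncoding RNAs had a median of -0.04 over 6, and 4 spliceosomal or related RNA rows all lay below the median of all genes, among them RNU11 at 20.4 FPKM and 11.9 FPKM.

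**Figure D4:**
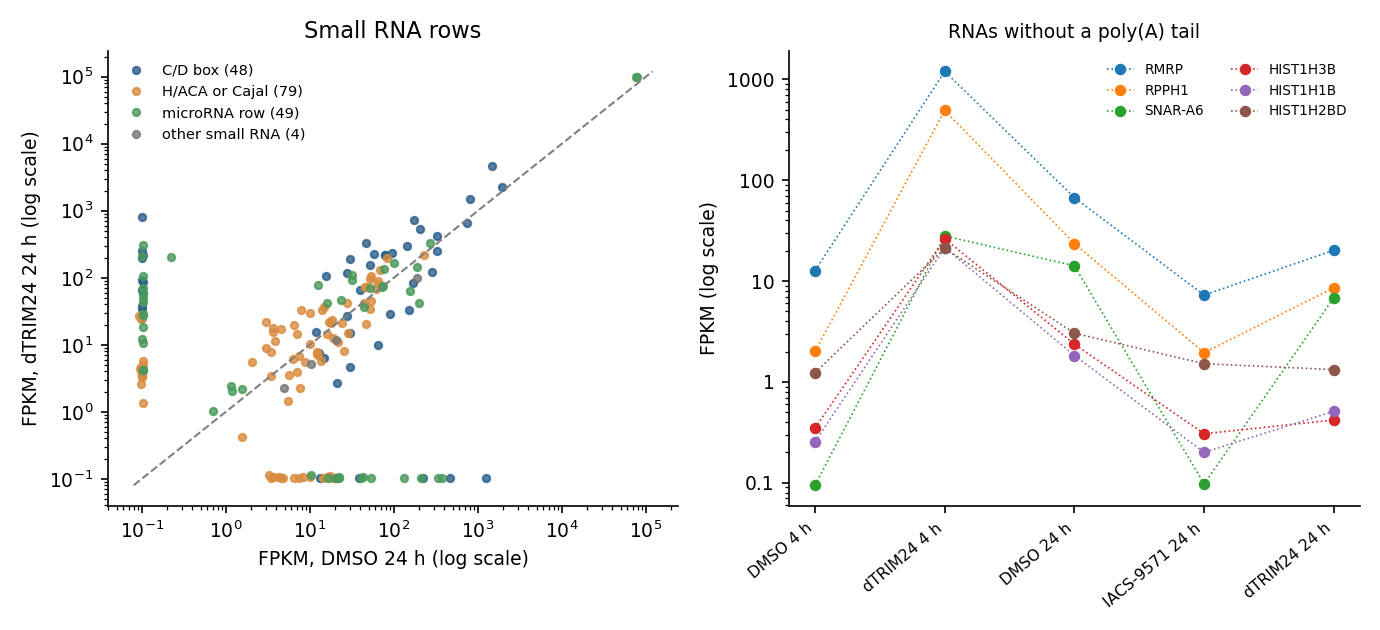
Left, FPKM of 180 small RNA rows with dTRIM24 against DMSO at 24 h (log axes, dashed line of equality, points coloured by class): rows line the lower and left edges, where a row is at the floor of the table in 1 group. Right, FPKM (log axis) in 5 groups of 6 RNAs that lack a poly(A) tail, each highest with dTRIM24 at 4 h; dotted lines only join the values of a gene.

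Small RNA rows went in both directions by large amounts. With DMSO 6065 rows share the value 0.1054 FPKM and with dTRIM24 6059 rows share the value 0.1005 FPKM, so a row near this level is at the floor and no fold is given against it. Of the 180 small RNA rows, 39 were below 0.25 FPKM with DMSO but not with dTRIM24, 33 were below it with dTRIM24 but not with DMSO, and 108 were above it in both. Of the 39, 12 were also below it in all 4 other groups, and of the 33, 8 were. The 39 and the 33 passed the filter only through the group where they were high, which favours large differences among them. Even the 108 rows measured in both groups had 31 past 2-fold higher and 14 lower. C/D box RNAs, many of which guide methylation of ribosomal RNA, had 25 of 48 higher and 12 lower. H/ACA and Cajal body RNAs, which guide pseudouridylation, had 26 of 79 higher and 20 lower, and microRNA rows 19 of 49 higher and 15 lower. Over all kept rows the shares were 0.762% and 0.484%. Many of the C/D box rows are SNORD116 copies, which are not independent. SNORD116-17 and SNORD116-19 had the same values, 78.2 FPKM with DMSO and 218 FPKM with dTRIM24. SNORD82 was at 1233 FPKM and 0.103 FPKM and SNORD104 at 0.101 FPKM and 802 FPKM.

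Most small nucleolar RNAs are cut from introns of longer host transcripts, which were measured too. For 104 of the small RNAs a kept gene holds them on the same strand in GENCODE v29, 76 hosts in all. All 76 hosts lay above DMSO, by 0.01 to 1.22 with a median of 0.24, and 75 of them were within 1.5-fold of the median of all genes. These counts are near the shares of all kept rows, 96.3% above DMSO and 98% within 1.5-fold. Of the hosts' 104 small RNAs 63 were past 2-fold in either direction, from -10.13 to 7.64. Among all small RNA rows 38.9% were past 2-fold higher and 26.1% lower, so these guests were like the class. NCL, which encodes nucleolin and hosts SNORD82, was at 641 FPKM and 872 FPKM. DKC1, the pseudouridine synthase gene that hosts SNORA36A, was at 97.8 FPKM and 117.5 FPKM while SNORA36A was at 20.2 FPKM and 0.1025 FPKM. TAF1D, a subunit of the RNA polymerase I selectivity factor, was at 38.6 FPKM and 45.9 FPKM, and of its 6 small RNAs 4 were past 2-fold higher and 1 lower. Large differences of guests in both directions thus stood beside small ones of their hosts.

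SNHG12 was the only host beyond 1.5-fold of the median of all genes. This long noncoding host gene was at 4.79 FPKM with DMSO and 12.5 FPKM with dTRIM24 (relative difference 0.97, and 0.96 without the GC trend), at 7.78 FPKM with IACS-9571, and at 7.16 FPKM and 7.69 FPKM in the 4 h pair. Its 4 measured guests were all higher: SNORA16A at 10.1 FPKM and 30.1 FPKM, SNORA44 at 3.63 FPKM and 17.5 FPKM, SNORA61 at 68.4 FPKM and 131 FPKM, and SNORD99 at 0.104 FPKM and 218.5 FPKM. SNORD99 was below 0.25 FPKM with DMSO and in all 4 other groups. Guests that were all higher were not particular to SNHG12. All 3 guests of C19orf48 (relative difference 0.30) and both guests of ZFAS1 (-0.16) were past 2-fold higher. The list of 19 small RNA host genes, SNHG12 included, had a median of 0.02, and 11 lay above the median of all genes.

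Most microRNA rows measure hairpin-length features and not the mature microRNA, since long-RNA libraries rarely hold molecules so short. Of 49 kept rows with a microRNA name, 35 match a RefSeq hairpin, of 72 to 149 bases with a median of 94. The rest include a few host genes such as MIR155HG, whose longest transcript has 1600 bases. By their names these are counted among the small RNA rows. MIR1244-2 and MIR1244-3 held 77231 FPKM and 78171 FPKM with DMSO and 100241 FPKM and 100478 FPKM with dTRIM24, a large part of each column's sum. MIR1244-2 was lowest with IACS-9571 at 24 h, at 67749 FPKM, and highest with DMSO at 4 h, at 127690 FPKM. Which reads these rows hold was not tested. Over a feature shorter than most fragments FPKM can in general be very large from few reads. How the authors handled this is not stated in the sources used here. The 4 hairpins below are shown, from RefSeq on GRCh38.p14 with the mature arms in capitals, because their microRNAs are known in myeloid cells or MLL leukaemia; they were chosen after their values were seen. MIR223 (chrX:66018870-66018979, + strand), of granulocytes, was at 0.0995 FPKM with DMSO and 12 FPKM with dTRIM24, and at 10.35 FPKM and 0.103 FPKM in the 4 h pair. MIR142 (chr17:58331232-58331318, - strand), of blood cells, was at 134 FPKM and 0.102 FPKM, and below 0.25 FPKM in all 4 other groups. MIR29C (chr1:207801852-207801939, - strand) was at 0.104 FPKM and 307 FPKM, and MIR196B (chr7:27169480-27169563, - strand), of the HOXA cluster, at 0.103 FPKM and 49.1 FPKM. MIR29C and MIR196B were at 65.6 FPKM and 178 FPKM with IACS-9571 at 24 h, and below 0.25 FPKM in every 4 h group. In each of the 4 hairpins the value was at the floor in 1 of the 2 groups compared.
MIR223: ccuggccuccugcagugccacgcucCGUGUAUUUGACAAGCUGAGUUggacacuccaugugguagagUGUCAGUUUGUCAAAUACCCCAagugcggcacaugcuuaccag
MIR142: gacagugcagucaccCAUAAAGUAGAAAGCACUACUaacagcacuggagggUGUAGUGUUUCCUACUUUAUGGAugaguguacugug
MIR29C: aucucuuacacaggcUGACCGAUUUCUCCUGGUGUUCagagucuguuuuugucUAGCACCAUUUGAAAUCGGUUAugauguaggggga
MIR196B: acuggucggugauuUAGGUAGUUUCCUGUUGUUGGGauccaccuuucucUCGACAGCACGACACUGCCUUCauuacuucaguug

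The rows past 2-fold that are neither small nor tailless lie mostly in loci where reads can be shared. Read-through rows join neighbouring genes in 1 transcript. Of 46 kept read-through rows 7 (15.2%) were beyond 1.5-fold of the median, where 43 of 10878 other rows (0.395%) were. HYPK, a chaperone partner of the N-terminal acetyltransferase, had the highest relative difference of any row outside the small RNAs, at 4.49 FPKM and 27.7 FPKM (2.13). Its read-through row SERF2-C15ORF63 (C15ORF63 is HYPK) was at 43.0 FPKM and 32.4 FPKM, and SERF2 at 92.6 FPKM and 115 FPKM. At 4 h HYPK was at 38.3 FPKM and 24.6 FPKM and the read-through row at 16.3 FPKM and 29.4 FPKM, so the rows stood in opposite order at each time. EEF1E1-MUTED was at 6.74 FPKM and 1.55 FPKM while BLOC1S5 (formerly MUTED) was at 7.85 FPKM and 15.3 FPKM, BLOC1S5-TXNDC5 at 14.7 FPKM and 11.5 FPKM, and EEF1E1 at 57.3 FPKM and 70.9 FPKM. Other such rows were NME1-NME2 at 3.99 FPKM and 8.67 FPKM, RPS10-NUDT3 at 15.4 FPKM and 10.7 FPKM, and INO80B-WBP1 at 0.309 FPKM and 2.24 FPKM. P2RY11, a purine receptor, was at 3.62 FPKM and 8.45 FPKM and overlaps PPAN-P2RY11, at 2.23 FPKM and 4.14 FPKM.

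Near-identical copies lay on opposite sides of DMSO in some sets and on the same side in others. SLX1A, a structure-specific nuclease, was at 13.2 FPKM and 3.31 FPKM while its copy SLX1B was at 24.2 FPKM and 41.6 FPKM. EIF3CL was at 0.125 FPKM and 4.51 FPKM beside EIF3C, a core subunit of the eIF3 initiation factor, at 201 FPKM and 260 FPKM. CBWD5 was at 9.27 FPKM and 5.66 FPKM, while CBWD1, CBWD2, CBWD3 and CBWD6 were all above DMSO. PKD1P1, a polycystin pseudogene, was at 2.41 FPKM and 6.31 FPKM and NPIP at 5.75 FPKM and 13.0 FPKM. PKD1, the parent of the pseudogene, was at 1.13 FPKM and 2.64 FPKM, so that these rows were all higher. MSTO2P was at 0.112 FPKM and 1.33 FPKM beside MSTO1 at 15.5 FPKM and 22.1 FPKM. PCNA-AS1, antisense to PCNA, was at 0.113 FPKM and 4.31 FPKM beside PCNA at 312 FPKM and 347 FPKM, and reads of the strands cannot be told apart where strand is not given. PILRB was at 1.67 FPKM and 4.54 FPKM. For LOC728875, at 0.112 FPKM and 2.82 FPKM, and HP07349, at 0.616 FPKM and 2.32 FPKM, no copy was compared. How reads were split among copies and read-through rows was not tested, and all of these values are uncertain.

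**Figure D5:**
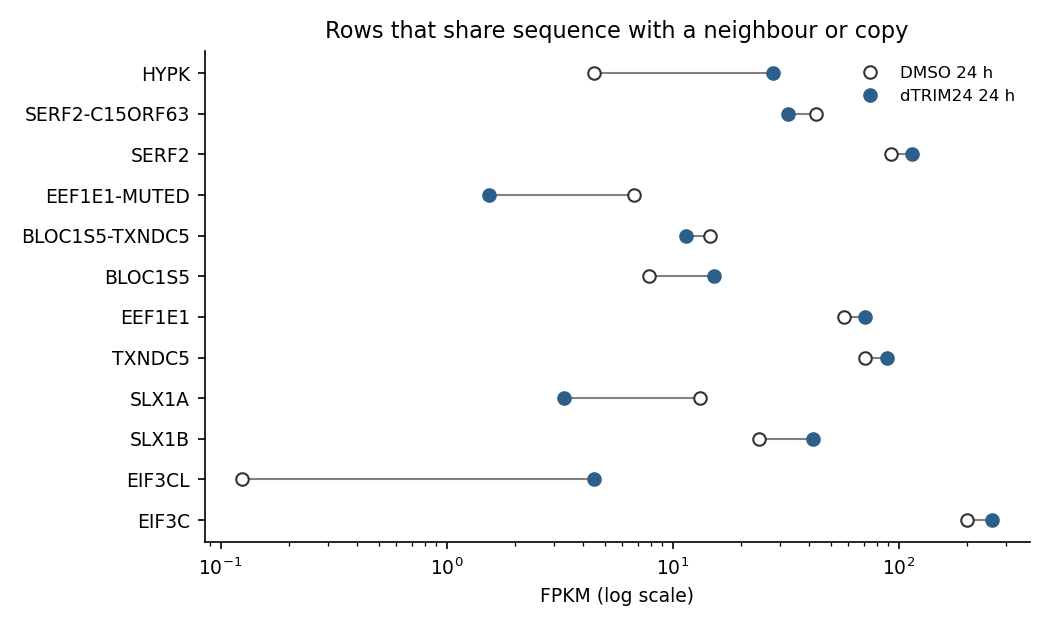
FPKM (log axis) of 12 rows with DMSO (open points) and dTRIM24 (filled points) at 24 h, in loci with read-through rows or near-identical copies. HYPK, EEF1E1-MUTED, SLX1A and EIF3CL differ by more than 2-fold, while SERF2, EEF1E1, TXNDC5 and EIF3C lie close to the median shift of all genes.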

How the data were processed

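RNA of MOLM-13 cells was sequenced, and groups were taken from titles and time points. The treatment protocol in the labels names 24 h for every sample, but the titles, time points and design text name 4 h for some and 24 h for others, and these were followed. The deposited FPKM values are group means that the authors made with Cuffnorm after TopHat2 alignment (build hg19), per the submitters' processing notes. Their versions, the annotation and the use of strand are not stated in those notes.

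From them log2(FPKM + 1) differences were computed, with a pseudocount of 1, over rows with at least 1 FPKM in either group, also relative to the median of all kept genes. Means of groups allow no test, and none was run. Members and gene lists were chosen with earlier results of these data known. The genes named were TRIM24 and its relatives; the 15 largest relative differences each way that reached 5 FPKM in either group, small RNAs apart; genes past 2-fold as deposited; up to 4 members of each list farthest from the median of all genes; read-through rows and copies with their partners; and small RNAs with at least 20 FPKM. Other genes, including HMGCS1 (plotted only), DHRS9 and the hairpins MIR223 and MIR1244, were chosen after their values were seen.

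GC content came from GENCODE v29 transcripts matched by symbol (10890 rows, 97.66%), and the cubic trend was fitted without small RNAs or RNAs lacking a tail. That annotation is of another build than the authors', so none of its coordinates is printed, and it served otherwise only to find which gene holds a small RNA. RefSeq promoter windows matched 8766 kept rows, and 9 of the 15 named higher genes had one. The steps were tested on simulated data. Versions were 3.11.15 for Python, 2.4.6 for numpy, 2.3.3 for pandas, 1.17.1 for scipy and 3.10.9 for matplotlib. Alternatives were other pseudocounts and filters, 3 scalings, a GC correction, RNA classes left out and a 1.5-fold threshold. Some genes that this rule names are not reported here.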

Additional observations from a re-analysis of the deposited data

How the results depend on the processing

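No paired analysis was possible because the table gives 1 mean per group, and for the same reason no replicate could be left out. Depth is unknown. As deposited, 85 rows were past 2-fold higher and 54 lower, and relative to the median of all genes 69 and 73. With a pseudocount of 0.1 the higher count as deposited was 160. Without small RNAs and RNAs lacking a tail the counts were 15 and 2 as deposited and 5 and 2 relative to the median. At 1.5-fold they were 607 and 84 as deposited and 112 and 111 relative to the median. The other settings kept each count within 1.5 times. The median difference, 0.2569, was 0.05659 with no filter on low values, which adds rows at the floor of the table. It was 0.03236 with equal totals, -0.01693 with quantile normalization and -0.008629 with the GC trend taken out, settings that take out a common shift by construction. With the spike-ins made equal it was 0.311. Of 504 alternative values for 57 list medians, 45 differed by at least the SD of the spike-ins, 43 of them with no filter, and 38 medians had another sign in at least 1 setting. Of 254 values for 30 named genes, 46 differed by as much, 30 of them with no filter, and 0 genes had another sign. These genes were picked as the largest relative differences each way, so their unchanged signs are no support for them.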
